A study of Mus musculus with 4 samples.

Results

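The cells described here were 1844 late proximal tubule cells, chosen by the expression of Slc7a13, Cyp7b1 and Slc22a30 from 58660 kidney cell barcodes in 4 single-cell RNA-seq libraries. A barcode was selected on at least 1000 UMIs (unique molecular identifiers, each standing for 1 captured RNA molecule), 200 to 5000 detected genes and less than 50% mitochondrial UMIs. It also needed at least 3 UMIs summed over the proximal tubule genes Slc34a1, Lrp2 and Miox. Its summed Slc7a13, Cyp7b1 and Slc22a30 UMIs had to reach 5, make up at least 5 per 10000 of its UMIs and exceed its Slc5a12 UMIs, and Slc12a1, the cotransporter of the thick ascending limb, had to stay under 3 UMIs. The limits on UMIs, genes and mitochondrial share left 30818 barcodes, termed kept barcodes here, so the late cells were drawn from all 4 libraries out of that number. These genes and thresholds chose the cells, and their levels in the cells are a description.

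The proximal tubule reclaims most of the filtered glucose, amino acids, phosphate and organic ions. Its early segments carry the high-capacity glucose cotransporter SGLT2 (Slc5a2) and the lactate cotransporter Slc5a12. Its later segments carry the high-affinity glucose cotransporter SGLT1 (Slc5a1), the aspartate and cystine carrier Slc7a13, and many organic anion carriers and oxidative enzymes, several of them under androgen control in male mice. The tubule burns fatty acids, a programme that the nuclear receptor PPAR-alpha turns on.

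Whole kidneys of male C3H mice (C3H/HeJ in the study's methods) gave the libraries; the mice were either wild type (WT) or Sweet Pee (SP) mice, which are homozygous for a missense mutation in Slc5a2 and are called MT in the deposited labels. Mice were 10 weeks old at the start and received a normal diet (ND) or a high-fat diet (HFD, 60% of calories from fat) for 8 weeks, and kidneys were taken at 18 weeks of age. Each of the 4 conditions was 1 library, and how many mice went into each is not given in the sources used here. No difference between libraries could therefore be tested, no p-value is given, and animal, library and condition cannot be told apart. Intervals are 95% and cover counting error only. Wherever 4 values follow one another they stand for the libraries in a fixed order, first WT-ND, then WT-HFD, then SP-ND and last SP-HFD.

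The late cells were deeply sequenced. Their median was 12339, 13486, 16975 and 13163.5 UMIs, and the median number of genes lay between 2693 and 3357. Mitochondrial UMIs made up a median of 32.4%, 30.7%, 36.7% and 29.8% in the same order. Pooled over cells, each library held between 2395019 and 8124119 UMIs that were not mitochondrial, and levels below are UMIs per 1000000 of these (CPM). Between 54 and 77 barcodes, at most 0.522% of the smaller library, occurred in both libraries of a pair, and 1 barcode was a late cell in both WT-ND and WT-HFD.

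The label was checked on marker genes. Of 7 proximal tubule markers, Slc34a1, Lrp2 and Miox chose the cells and check nothing. The other 4, among them Cubn and Gpx3, summed to 16050.3 to 17045.4 CPM in the late cells of the 4 libraries, against 877 to 2325 CPM in endothelial cells of the same libraries, which should lack them. Atp11a, the one late marker that the selection did not use, lay at 642, 851, 380 and 1049 CPM. In early proximal tubule cells (the same limits with at least 3 Slc5a12 UMIs, more than of the 3 late genes; 1188 cells) Atp11a was lower in every library, at 202, 288, 85.6 and 356 CPM. Cyp7b1, although a gene of the selection, was found in 0.221%, 2.35%, 6.61% and 16.7% of the late cells. Slc22a6, the organic anion carrier listed here with the early and middle segments, stood at 1297 to 1599 CPM in the late cells and at 648 to 1149.5 CPM in the early cells. In the late cells the 5 early markers, among them Slc22a6 and Slc5a12 of the selection, summed to 2498, 2562, 2482 and 2366 CPM. The 4 late markers, of which 3 chose the cells, summed to 2319, 2500, 2119 and 3025 CPM. The early sum was thus not low in the late cells, with Slc22a6 alone giving 1297 to 1599 CPM of it. This does not hold for each early marker. Slc5a2, another of the 5, was lower in late than in early cells of every library, with values given below.

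RNA of other cell types was present at low levels. Thick ascending limb markers (6 genes) summed to 489.2 to 789.9 CPM. Slc12a1 is among them and was held under 3 UMIs per cell by the selection, which limits that sum. Endothelial markers (7 genes) summed to 29.1 to 69.7 CPM and erythroid markers (5 genes) to 0 to 1.32 CPM. B and plasma cell markers (6 genes) summed to 16.6, 414.6, 1.47 and 269.3 CPM, high in both HFD libraries, and Ms4a1 was at 0 in 3 of the libraries. Fibroblast and mural markers (7 genes) summed to 490.6 CPM in WT-HFD and to 20.2 to 43.9 in the other libraries, and podocyte markers (6 genes) to 326.1 CPM in SP-HFD and 77.8 to 105.7 elsewhere. These values move with single results and are given again beside them.

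Late cells took the largest share in WT-ND. There they numbered 903 of 8853 kept barcodes (10.2%, interval 9.58 to 10.8%), against 426 of 9145 (4.66%, 4.24 to 5.11%) for WT-HFD. SP mice had 257 of 6043 (4.25%, 3.76 to 4.79%) on ND and 258 of 6777 (3.81%, 3.36 to 4.29%) on HFD. The WT-ND share was above the other 3, and the intervals of WT-HFD, SP-ND and SP-HFD overlapped from one to the next. The limit on mitochondrial UMIs removed 237, 203, 182 and 226 further barcodes that met every other criterion, or 20.8%, 32.3%, 41.5% and 46.7% of all that did, so the loss was smallest in the library with the largest share. The limit on Slc12a1 alone removed 35, 98, 17 and 13 further barcodes, or 3.73%, 18.7%, 6.20% and 4.80%, a loss that was heaviest in WT-HFD. The part of these losses in the shares was not tested.

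**Figure D1:**
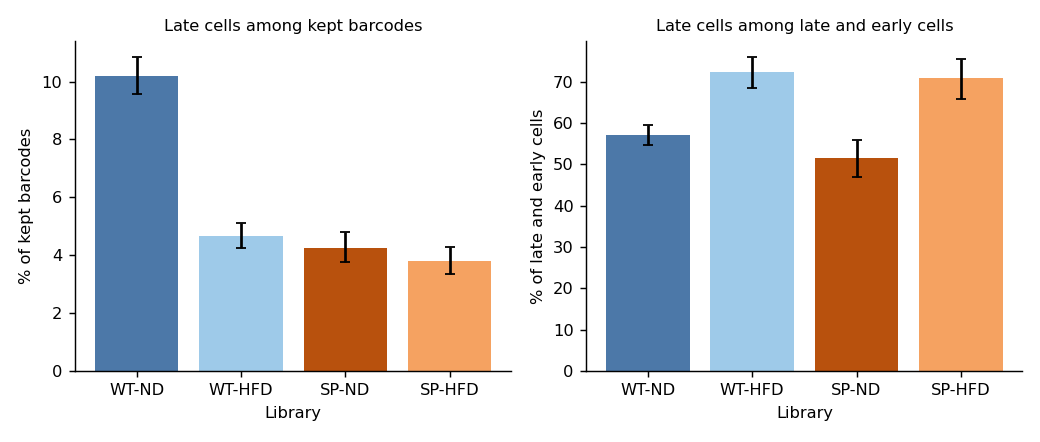
Late proximal tubule cells per library as a percentage of kept barcodes (left) and of late plus early proximal tubule cells (right). Bars are single libraries and error bars are 95% Clopper-Pearson intervals for counting error; WT-ND stands highest at 10.2% on the left, and both HFD libraries stand above both ND libraries on the right.

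Against the early cells the order was different. On ND, late cells made up 57.1% (54.6 to 59.6%) of late plus early cells for WT and 51.5% (47.0 to 56.0%) for SP. On HFD they made up 72.4% (68.6 to 76.0%) for WT and 70.9% (65.9 to 75.5%) for SP. Both HFD libraries lay above both ND libraries in the plot of shares. With Slc7a13 alone as the late gene, an alternative added after the data were seen, the shares were 48.1%, 51.8%, 43.5% and 53.7%, in the same order by diet but closer together. In WT these shares lay close. They came from 629 late and 678 early cells on ND and from 174 and 162 on HFD. No intervals were taken for this alternative, so its WT order is not set apart from counting error.

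The 3 selecting genes contributed unequally. Slc7a13 (chromosome 4, 19818727 to 19842213 in GRCm38) gave 74.9%, 55.3%, 75.4% and 55.5% of their UMIs. Slc22a30, an organic anion transporter gene of chromosome 19 (8335371 to 8405111), gave 25.04%, 43.5%, 20.3% and 38.3%. Slc22a30 thus carried more of the selection in both HFD libraries. Cells with fewer than 2 Slc7a13 UMIs made up 5.09% and 1.95% of the late cells on ND (WT and SP), against 22.8% and 20.2% on HFD.

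In level, Slc7a13 stood at 1256, 912, 1312 and 1096 CPM, and Slc22a30 at 420, 718, 354 and 757 CPM. Slc22a30 was higher in both HFD libraries, by a log2 ratio of 0.77 in WT and 1.10 in SP. With each cell thinned to 1000 UMIs, Slc7a13 was seen in 52.9%, 44.1%, 60.3% and 50.4% of late cells (98.2%, 84.5%, 99.2% and 87.6% unthinned). In endothelial cells, with medians of 3079 to 5017 UMIs, thinned shares for Slc7a13 were 1.72% to 6.68%, which gives the background from free RNA.

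At the edge of the selection, 77, 56, 12 and 13 late cells had exactly 5 UMIs of the 3 genes. A further 67, 75, 14 and 22 barcodes with 4 such UMIs failed that limit alone. The median late cell had 12, 12, 15 and 13.

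**Figure D2:**
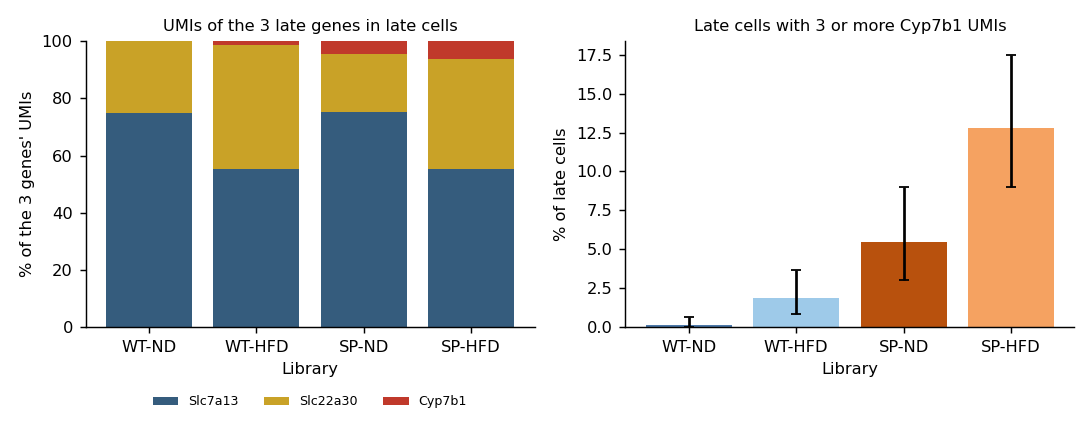
Left, share of each selecting gene in the summed Slc7a13, Slc22a30 and Cyp7b1 UMIs of the late cells. Right, late cells with 3 or more Cyp7b1 UMIs as a percentage of late cells, with 95% Clopper-Pearson intervals; the share runs from 0.111% in WT-ND to 12.8% in SP-HFD.

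Cyp7b1, which encodes the oxysterol 7-alpha-hydroxylase (chromosome 3, 18071944 to 18243890), was held by a small group of cells. It had 4, 91, 201 and 296 UMIs, or 0.492, 20.0, 74.1 and 124 CPM. Cells with at least 3 Cyp7b1 UMIs, a limit set after its values were seen, numbered 1, 8, 14 and 33. For WT this was 0.111% (0.00280 to 0.615%) of late cells on ND and 1.88% (0.814 to 3.67%) on HFD. For SP it was 5.45% (3.01 to 8.97%) on ND and 12.8% (8.97 to 17.5%) on HFD. Outside WT-ND they carried 97.8%, 98.0% and 95.3% of all Cyp7b1 UMIs of the late cells, while only 1, 2, 3 and 10 other late cells had any. In endothelial cells Cyp7b1 was seen unthinned in 0.514% to 1.82%, so the share of late cells with any Cyp7b1 in WT-ND was at background.

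These Cyp7b1 cells were shallow and carried another set of genes. In the libraries other than WT-ND, which had 1 such cell, and in the same order, their median was 4939.5, 5806 and 3277 UMIs, against 13528.5, 17378 and 14544 in the remaining late cells. Of 1898 genes with at least 100 CPM in either group, 110 (5.80%) were at least 2-fold higher and 60 (3.16%) at least 2-fold lower in the Cyp7b1 cells in each of these 3 libraries. A gene with 0 UMIs in either group of any of these libraries was left out of both counts. Genes strongly lower in the Cyp7b1 cells, which held few UMIs, can therefore be missing from the 60. Of 26 measured late segment genes outside the selection, 13, 14 and 12 were higher and 4, 3 and 4 lower. Their medians were 1.26, 1.37 and 0.89. Of 12 measured early and middle segment genes, 1, 0 and 0 were higher and 9, 6 and 10 lower. Their medians were -1.64, -2.01 and -2.53. The 16 measured androgen-responsive genes, which include the 3 selecting genes, had 2, 3 and 2 higher and 9, 9 and 9 lower. Their medians were -1.53, -1.68 and -1.23. Of 22 measured organic anion and cation transporters, 7, 7 and 7 were higher and 4, 4 and 5 lower, with medians of -0.20, 0.19 and -0.01, so the list went both ways. Among the higher members were Slc22a7, Slc22a13 and Slc22a19. Slc22a13 stood at 231, 383 and 259 CPM in the Cyp7b1 cells, against 1.78, 8.36 and 6.60 CPM in the other late cells. Slc22a19 reached 384, 371 and 616 CPM against 8.44, 7.22 and 24.2 CPM. Levels in the Cyp7b1 cells rest on 39032, 80898 and 123372 UMIs that were not mitochondrial. A single cell held 31.4%, 22.9% and 12.8% of their late marker UMIs.

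Other genes followed the same split. Serpina1f stood at 717, 544 and 665 CPM in the Cyp7b1 cells against 1.55, 1.14 and 10.1 CPM, and Mep1b, a subunit of the brush border protease meprin, at 1307, 841 and 1572 CPM against 24.4, 25.8 and 59.9 CPM. Apob, the core protein of lipoproteins, reached 1614, 927 and 843 CPM against 4.89, 6.08 and 18.5 CPM. The neutral amino acid carrier Slc6a18 was higher by log2 ratios of 3.05, 2.09 and 2.48. Slc7a13 itself was higher by 1.64, 1.64 and 1.96, and Slc22a30 differed by -0.35, 0.17 and -0.57.

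The genes lower in the Cyp7b1 cells were abundant in the rest. Slc22a6 had 1, 2 and 5 UMIs in them, 25.6, 24.7 and 40.5 CPM, against 1548, 1336 and 1527 CPM in the other late cells. Cyp2e1 differed by log2 ratios of -4.29, -6.78 and -5.32, Slco1a1 by -3.71, -4.52 and -4.11, and the phosphate cotransporter Slc34a1 by -3.91, -4.85 and -3.71. The endocytic receptor Lrp2 went the other way, at 1.18, 0.55 and 1.21. As the cells were set apart by 1 gene of the selection, these are descriptions, and the cells stay unnamed here. Podocyte markers (6 genes) summed to 0, 98.9 and 1443 CPM in the Cyp7b1 cells and to 91.3, 77.1 and 265 CPM in the other late cells, and all 178 of their UMIs in the Cyp7b1 cells of SP-HFD lay in 1 cell.

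**Figure D3:**
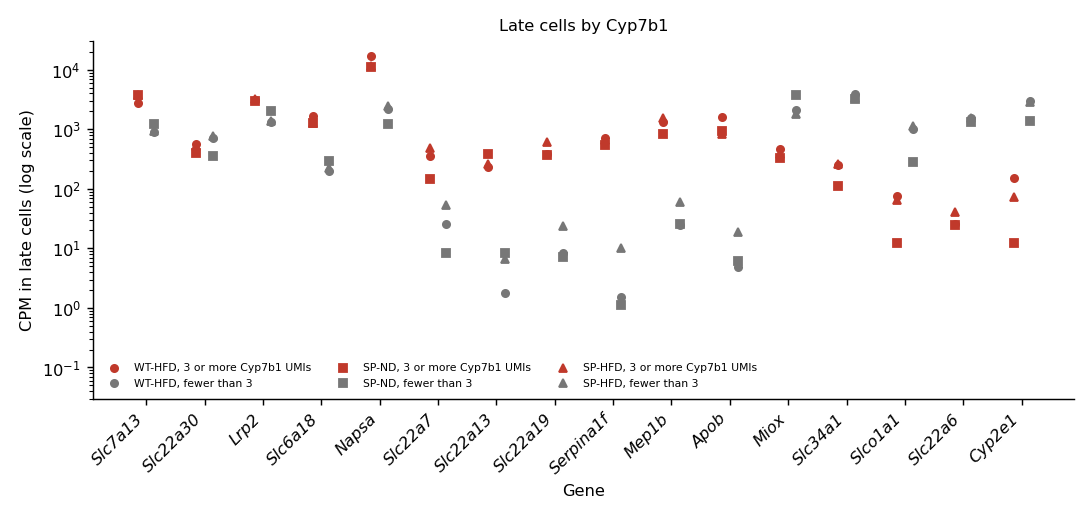
Levels in CPM (log axis) of 16 genes in late cells with 3 or more Cyp7b1 UMIs (red) and in the remaining late cells (grey), with circles for WT-HFD, squares for SP-ND and triangles for SP-HFD. Slc22a13, Slc22a19, Serpina1f, Mep1b and Apob lie higher and Slc34a1, Slco1a1, Slc22a6 and Cyp2e1 lower in the red points of all 3 libraries.

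The late cells were next set beside the early proximal tubule cells of the same library. Of 6277 genes with a mean of at least 20 CPM in late or in early cells, 45 (0.717%) were at least 2-fold higher in the late cells in all 4 libraries and 67 (1.07%) at least 2-fold lower. Part of this order follows from the selection, which used Slc5a12. Slco1a1, an organic anion transporter gene, stood at 864, 1000, 276 and 1062 CPM in late cells and at 36.5, 168, 0.869 and 163 CPM in early cells. Acsm3, a medium-chain acyl-CoA synthetase, stood at 664, 667, 233 and 875 CPM against 98.2, 61.1, 23.9 and 76.1 CPM. Both were lowest in SP-ND in either class.

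Solute carriers separated the classes in both directions. Slc5a8, a cotransporter of lactate and short-chain fatty acids, stood at 201, 190, 243 and 274 CPM in late cells and 19.7, 54.6, 18.3 and 77.4 CPM in early cells. Slc5a1 was at 63.3, 37.0, 82.6 and 38.8 CPM against 16.1, 7.64, 25.6 and 2.46 CPM. On the early side, the phosphate cotransporter Slc34a3 stood at 4.06, 4.62, 4.05 and 1.25 CPM in late cells and 46.7, 36.4, 65.6 and 41.8 CPM in early cells. Slc7a8, a basolateral amino acid carrier, stood at 18.5, 13.9, 29.1 and 11.3 CPM in late cells and 90.5, 88.7, 146 and 79.8 CPM in early cells. SGLT1 RNA thus lay on the late side and Slc34a3 and Slc7a8 RNA on the early side in each library.

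A few genes varied among cells far beyond counting noise. Over 810 genes with a mean of at least 0.1 UMI after thinning each cell to 1000 UMIs, the median variance over mean was 1.05, 1.07, 1.05 and 1.08, where 1 is counting noise. At this depth counting noise makes up most of the variance of a low gene, so a value near 1 does not show that the gene varied little. Kap, the androgen-induced kidney protein and the most abundant of the named genes, had ratios of 18.9, 29.8, 11.2 and 29.8. Malat1, a nuclear RNA, and Gm42418, which overlaps ribosomal RNA, ranked above Kap by the lowest of the 4 ratios. Ttr and Gpx3, which encode secreted proteins, were also among the 15 highest by that measure.

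Slc5a2, the gene mutated in SP mice, was read as a check of the genotype labels, although counts at the 3′ end do not show a missense change. It (chromosome 7, 128265683 to 128272430) stood at 181, 200, 12.5 and 71.0 CPM. Its RNA was lower in both SP libraries, by a log2 ratio of -3.85 (-4.39 to -3.36) on ND and -1.49 (-1.74 to -1.25) on HFD. The early cells had 901, 738, 221 and 314 CPM. Slc5a12, which marks early cells, was also lowest in the late cells of SP-ND (66.0, 90.9, 9.22 and 69.3 CPM), and its part in the low Slc5a2 value there was not tested.

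For diet and genotype, 5721 genes with a mean of at least 20 CPM were measured, and a gene was called when it differed by 2-fold or more. Between diets in WT, 110 genes were higher in WT-HFD (1.92% of genes) and 57 lower (0.996%). In SP, 175 were higher in SP-HFD (3.06%) and 124 lower (2.17%), so 58.5% of the SP calls were higher; with CPM over all UMIs this share was 69.2%. Both genotypes shared 72 genes higher on HFD (1.26%) and 46 lower (0.804%). These 2 diet comparisons have no library in common. The median log2 ratio over all genes was 0.00 in WT and -0.07 in SP.

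**Figure D4:**
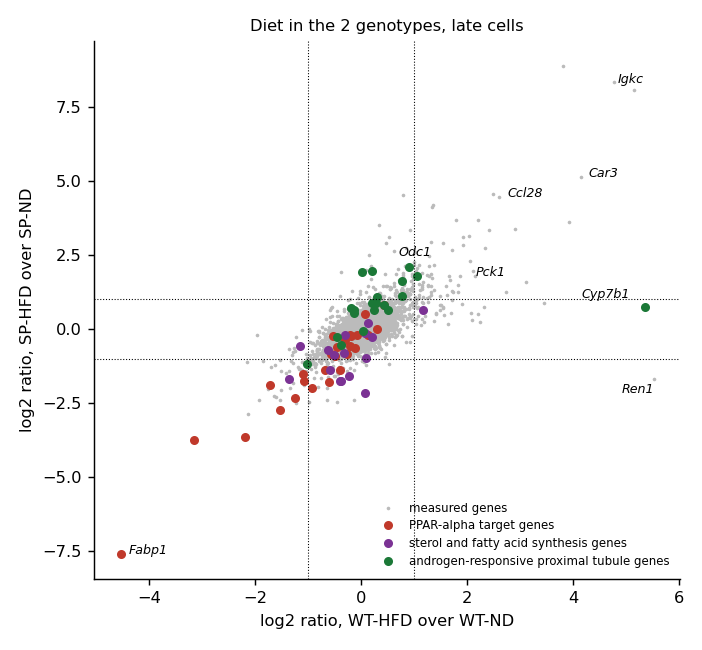
Log2 ratio of HFD over ND in late cells of WT (x axis) and SP (y axis), 1 point per gene, with 3 gene lists in colour and dotted lines at 2-fold. Fabp1 lies far to the lower left, at -4.54 and -7.62; Ren1 lies at 5.52 in WT and -1.68 in SP. Genes at 0 UMIs in a library, such as Cyp4a14, are not drawn.

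Fatty acid oxidation genes under PPAR-alpha were lower on HFD in both genotypes as a list. Of 39 listed targets, 30 were measured. In WT, 10 were called lower on HFD and 0 higher, with a list median of -0.52, beside 0.996% and 1.92% of all genes. In SP, 14 were called lower and 0 higher, with a median of -0.88, beside 2.17% and 3.06% of all genes. All 10 called in WT were also called in SP, among them Fabp1, Cyp4a10, Cyp4a14, Cyp4a31, Acot1, Acot2, Ehhadh, Acsl1 and Ucp2.

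Fabp1, the liver-type fatty acid binding protein, was the most abundant of the 10 in SP-ND. Its level was 452, 19.4, 4020 and 20.5 CPM. Both HFD libraries were low and alike, and SP-ND was far above WT-ND. On diet this gave a log2 ratio of -4.54 for WT (-4.86 to -4.24) and -7.62 for SP (-8.05 to -7.21). Fabp1 was seen in 17.9%, 0.939%, 71.6% and 1.16% of thinned late cells (59.5%, 10.6%, 93.4% and 8.91% unthinned), and in 5.66%, 0.125%, 15.9% and 0.202% of thinned endothelial cells. Early cells had more of it, at 930, 146, 5507 and 133 CPM.

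Fabp1 was also one of 2 measured PPAR-alpha targets whose promoter window held a near match to the receptor's usual site, so its window is shown. The search was for a direct repeat, AGGTCANAGGTCA (2 copies of AGGTCA with any 1 base between), on both strands of 32851 RefSeq promoter windows of 300 bases, from 250 before to 50 after the start. At most 1 mismatch was found in 0.554% of all windows and at most 2 in 3.86%. Of the 21 measured targets with a window, 2 held a match with at most 1 mismatch (Fabp1 and Acot12) and 3 with at most 2 (also Slc25a20). Of the other targets named above as lower on HFD, Acot1, Acot2, Ehhadh, Acsl1 and Ucp2 had 3 or more mismatches. Cyp4a10, Cyp4a14 and Cyp4a31 had no window. The match in Fabp1 starts 67 bases before the start, on the opposite strand, and is in capitals in the sequence, which RefSeq places at chr6:71199629-71199928 on the plus strand of GRCm38.p6.
Fabp1: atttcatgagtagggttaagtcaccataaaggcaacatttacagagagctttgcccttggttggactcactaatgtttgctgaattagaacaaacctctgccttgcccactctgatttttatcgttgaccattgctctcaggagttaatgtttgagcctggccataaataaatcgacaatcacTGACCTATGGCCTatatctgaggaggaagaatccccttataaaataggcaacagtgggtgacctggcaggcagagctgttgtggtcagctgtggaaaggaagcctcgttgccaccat
Acot12, whose window has an equal match, was not lower on HFD: it stood at 127, 134, 98.1 and 140 CPM. A match in these letters is a description and says nothing of binding.

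The omega-hydroxylases of the Cyp4a cluster, which oxidise the far end of fatty acids and lie within chromosome 4, 115486200 to 115579015, followed the same order. Cyp4a14 stood at 23.9, 0.661, 911 and 0 CPM, from 194, 3, 2472 and 0 UMIs. It was at least 727-fold lower in SP-HFD than in SP-ND, with 3 UMIs set in for the 0. Cyp4a10 stood at 230, 50.4, 1003 and 79.7 CPM. Cyp4a31 stood at 23.4, 7.05, 52.3 and 14.2 CPM. Each was highest in SP-ND and lower on HFD in both genotypes, whereas Cyp4a12a, listed as androgen-responsive too, was higher on HFD by 0.43 in WT and 0.81 in SP without reaching 2-fold. Reads of close Cyp4a copies can be assigned to the wrong copy, and how multi-mapped reads were counted was not examined here.

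Acyl-CoA genes gave the same order. Acot1, an acyl-CoA thioesterase, stood at 108, 12.1, 292 and 21.7 CPM, and Acsl1, which activates long-chain fatty acids, at 123, 42.3, 224 and 33.4 CPM. Ehhadh, a peroxisomal oxidation enzyme, stood at 450, 210, 751 and 262 CPM. Cpt1a, which brings long-chain fatty acids into mitochondria, was not called, at 166, 134, 170 and 132 CPM, so the list did not move as 1 block.

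**Figure D5:**
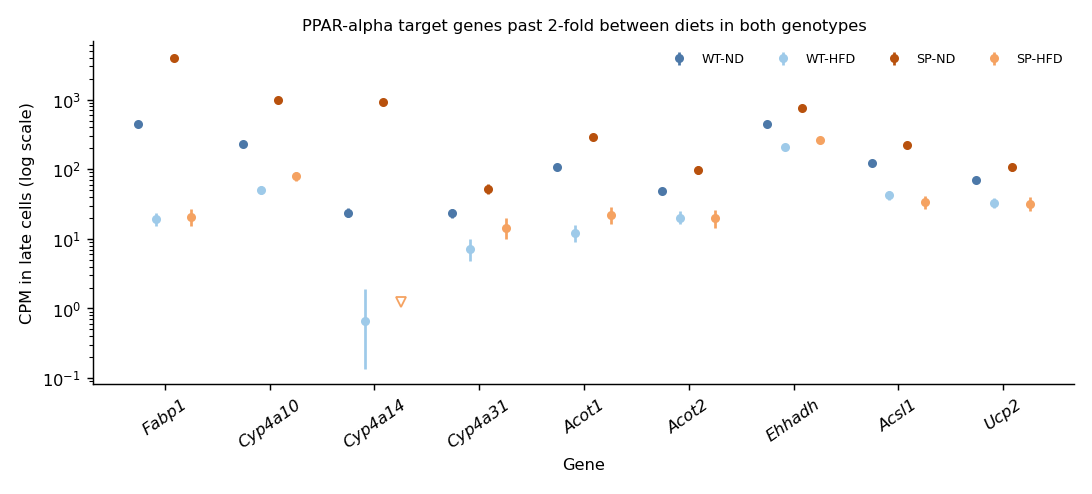
CPM on a log axis of 9 of the 10 PPAR-alpha targets called lower on HFD in both genotypes, with 95% Poisson intervals for counting error; the open triangle marks Cyp4a14 in SP-HFD, where 0 UMIs were found, at the level of 3 UMIs. SP-ND is highest and the HFD libraries lowest for every gene shown, from 4020 against about 20 CPM for Fabp1 to 107 against 33.3 and 31.7 CPM for Ucp2.

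On ND these genes were higher in SP. This comparison shares SP-ND with the SP diet comparison and WT-ND with the WT one. In SP-ND against WT-ND, 46 genes were higher (0.804%) and 49 lower (0.856%), with a median over all genes of 0.14. The split depended on scale: 48.4% of calls were higher, but 36.2% with CPM over all UMIs and 32.3% after setting the median log2 ratio to 0. Of the 30 PPAR-alpha targets, 7 were higher and 0 lower, with a median of 0.52. Cyp4a14 had the largest ratio at 5.25 (5.04 to 5.47), followed by Fabp1 at 3.15. On HFD, 1 target was called higher (Cyp4a31, at 1.01, and 0.83 without the barcodes of 10 or more UMIs of other classes per 10000) and 0 lower in SP-HFD against WT-HFD, with a median of 0.07. Over all genes, 0.489% were higher and 0.297% lower in that comparison.

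Sterol and fatty acid synthesis genes, the targets of the SREBP factors, had a like pattern at lower levels. Of 27 listed genes, 17 were measured. In SP, 7 were lower on HFD and 0 higher, with a median of -0.87, and in WT 3 were lower and 1 higher, with a median of -0.32. Over all genes, 2.17% were lower and 3.06% higher in SP, and 0.996% and 1.92% in WT. In SP-ND against WT-ND, 6 were higher and 0 lower, with a median of 0.62, beside 0.804% and 0.856% of all genes. Sqle, the squalene epoxidase, stood at 33.6, 35.7, 106 and 53.0 CPM, and Insig1, which holds SREBP back, at 19.8, 20.7, 66.0 and 14.6 CPM. For both, SP-ND stood alone above the other 3 libraries.

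Among the gluconeogenesis genes, Pck1 was called higher on HFD in both genotypes. Pck1, the cytosolic phosphoenolpyruvate carboxykinase, stood at 912, 3767, 1126 and 5537 CPM. It was higher on HFD by a log2 ratio of 2.05 (2.01 to 2.09) in WT and 2.30 (2.24 to 2.35) in SP, and early cells had 671, 5278, 697 and 7392 CPM. G6pc, which releases free glucose, stood at 370, 295, 269 and 155 CPM and was not called in any comparison. Of the 16 measured glucose genes, 1 (Pck1) was higher and 0 lower on HFD in WT (median 0.26). In SP, 2 were higher (Pck1 and Slc5a2, the mutated gene) and 2 lower (Slc5a1 and Fbp2), with a median of 0.28. The shares over all genes were 1.92% higher and 0.996% lower in WT, and 3.06% and 2.17% in SP.

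Androgen-responsive genes were lower as a list in SP-ND than in WT-ND or SP-HFD. All 20 listed genes were measured, and 3 of them, Slc7a13, Cyp7b1 and Slc22a30, also chose the cells. In SP, 7 were higher on HFD and 1 lower, with a median of 0.77, and in WT 2 were higher and 1 lower, with a median of 0.22. Over all genes, 3.06% were higher and 2.17% lower in SP, and 1.92% and 0.996% in WT. In SP-ND against WT-ND, 1 was higher and 3 lower, with a median of -0.59, beside 0.804% and 0.856% of all genes. Odc1, which makes putrescine, stood at 978, 1824, 423 and 1810 CPM. Acsm3 (664, 667, 233 and 875 CPM) and Slco1a1 (864, 1000, 276 and 1062 CPM) were low in SP-ND only, and the other 3 libraries lay higher.

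Further genes named for their size of change on diet fell into a few kinds. Higher on HFD were Hsd11b1, which regenerates active glucocorticoid (81.5, 458, 18.8 and 448 CPM), and the chemokine Ccl28 (105, 640, 31.3 and 690 CPM). Car3, a carbonic anhydrase, stood at 6.15, 109, 6.27 and 221 CPM. Spp2, a secreted phosphoprotein typical of early cells, stood at 16.5, 251, 18.8 and 230 CPM, beside 257, 943, 718 and 1049 CPM in early cells. All 4 genes were low in both ND libraries and high in both HFD libraries.

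Clock output genes were higher as well. Dbp stood at 18.3, 137, 12.2 and 126 CPM, a log2 ratio of 2.90 in WT and 3.37 in SP, and Per3 at 11.3, 35.7, 11.4 and 39.7 CPM. Of 8 measured clock genes, out of 17 listed, 3 were higher and 0 lower on HFD in each genotype. Over all genes, 1.92% were higher and 0.996% lower in WT, and 3.06% and 2.17% in SP. The share of late cells with single listed genes, unthinned, went both ways. Arntl was seen in 5.87%, 0.704%, 10.9% and 1.16% and Npas2 in 6.87%, 1.17%, 9.34% and 0.775%. Per2 was seen in 3.99%, 14.1%, 2.72% and 13.6%. The hour of tissue collection is not given in the sources used here, so hour and diet cannot be told apart. Endothelial cells showed Dbp at 53.0, 142, 22.3 and 117 CPM, the same order by diet.

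Genes of several kinds were lower on HFD in both genotypes, named for their size of change. Cela1, an elastase, stood at 310, 70.7, 320 and 43.4 CPM, Acmsd, which draws tryptophan breakdown away from NAD, at 115, 30.2, 127 and 23.8 CPM, and Ddc, the dopamine-forming decarboxylase, at 53.5, 15.9, 75.9 and 18.8 CPM. Slc7a7, a basolateral exporter of cationic amino acids, stood at 88.9, 31.0, 94.4 and 35.1 CPM. Of 9 measured genes of NAD synthesis from tryptophan, Acmsd alone was called in each genotype, with list medians of -0.27 in WT and -0.09 in SP. Over all genes, 0.996% were called lower in WT and 2.17% in SP. In Cela1, Acmsd, Ddc and Slc7a7 the 2 ND libraries differed by less than 2-fold, and both HFD libraries were low. Ndrg1 was also lower, at 2240, 778, 2468 and 1180 CPM.

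Some of the largest ratios were of genes that other kidney cell types express. Igkc, an immunoglobulin light chain, stood at 47.6, 1681, 2.58 and 694 CPM in late cells and at 49.9, 3815, 3.76 and 2349 CPM in endothelial cells, and 1 cell held 72.3% of its UMIs in the WT and 80.6% in the SP library on HFD. Ren1, the renin gene, stood at 373 CPM in WT-HFD and at 6.68 to 21.4 CPM in the other libraries, and 1 cell held 97.0% of its 1693 UMIs. With barcodes of 10 or more UMIs of other classes per 10000 left out, an alternative added after the data were seen, its log2 ratio of 5.52 in WT was -0.88. Tubular injury and repair genes, of which 11 of 30 were measured, were called higher on HFD in 3 genes in WT (median 0.78) and 7 in SP (median 1.46), and with all barcodes of 3 or more such UMIs left out the SP median was -0.29. Over all genes, 1.92% were called higher in WT and 3.06% in SP.

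On ND, genes other than lipid genes also separated the genotypes. Sgk1, the aldosterone-induced kinase, stood at 22.9, 16.7, 111 and 20.0 CPM, and Gsta3, a glutathione transferase, at 62.8, 40.1, 200.2 and 38.0 CPM. Lower in SP-ND were Hsd11b1 (-2.12), Slco1a1 (-1.65), Acsm3 (-1.51) and Car4, a membrane carbonic anhydrase (199, 114, 78.5 and 74.3 CPM). Sgk1 and Gsta3 were high in SP-ND alone, whereas Car4 was highest in WT-ND alone. Endothelial cells had much more Sgk1, at 686 to 921 CPM in the 4 libraries.

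The genotypes were also compared on HFD. In SP-HFD against WT-HFD, 28 genes were higher (0.489%) and 17 lower (0.297%), with a median of 0.07 over all genes; 62.2% of calls were higher, but 46.0% after setting that median to 0. Among the higher genes Cyp7b1, which also chose the cells, had the largest ratio, 2.62 (2.28 to 2.98), and among the lower genes Ren1, at -5.80. Ugt2b37, a glucuronosyltransferase, stood at 171 CPM for WT and 440 for SP, and Cyp2a4, a steroid hydroxylase, at 143 and 311 CPM. Among the lower genes were Atp6v1g3, Tmem213 and Defb1, which are distal nephron genes: Atp6v1g3 stood at 105 and 32.6 CPM in late cells and at 346 and 144 CPM in endothelial cells. Leaving out barcodes with 10 or more UMIs of other classes per 10000 brought the lower genes from 17 to 3.

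Podocyte markers were higher in SP-HFD than in the other libraries. All 3 measured markers were called higher in SP-HFD against SP-ND and against WT-HFD. Podxl, which endothelial cells also express, stood at 31.9, 24.4, 22.1 and 83.5 CPM. The part of podocyte RNA in other values of SP-HFD was not tested.

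Few genes were called for genotype on both diets, comparisons that share no library: 5 were higher in SP (0.0874%) and 6 lower (0.105%). The 5 higher were Cyp7b1, Slc22a19, Apob, Piga and Cyp4a31. Slc22a19 stood at 1.35, 11.7, 18.1 and 54.7 CPM and Apob at 1.72, 18.7, 33.5 and 61.0 CPM. Both ranked the libraries in the order of their share of Cyp7b1 cells. With those cells left out, an alternative also added after the data were seen, the log2 ratio on ND and HFD was 2.41 and 1.52 for Slc22a19 and 2.17 and 1.92 for Apob. The 6 lower were Slc5a2, Pvalb, Atp6v1g3, Tmem213, Igkc and Car15, of which Slc5a2 alone stayed at 2-fold or more on both diets without the barcodes that held 10 or more UMIs of other classes per 10000.

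Some lists had few or no calls. Over all genes, between 0.297% and 3.06% were called per comparison and direction. Few or no calls in lists this small are near that share, so they do not show that these genes stayed unchanged. None of 32 nuclear OXPHOS subunits and none of 15 endocytic uptake genes was called in any of the 4 comparisons, and the list medians lay between -0.20 and 0.10. Of 16 measured proximal tubule transcription factors, Cebpb was called once (1.03 in SP-ND against WT-ND). Of 16 measured amino acid transporters, none was called for genotype, and on diet Slc7a7 was lower in both genotypes and Slc1a4 higher in SP.

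Other lists had a larger share of calls on diet than all genes in at least 1 direction; over all genes it was 1.92% higher and 0.996% lower in WT and 3.06% higher and 2.17% lower in SP. Late segment genes outside the selection (25 of 30 measured) gave 2 higher and 0 lower on diet in WT and 8 higher and 2 lower in SP, with medians of 0.08 and 0.33. Detoxification enzymes (28 of 37 measured) gave 3 higher and 4 lower in WT and 3 higher and 7 lower in SP, with medians of -0.13 and -0.20. Heat shock and chaperone genes (18 of 20 measured) gave 3 higher in WT and 4 in SP with none lower, and medians of 0.31 and 0.54. Over the alternatives these medians ran from 0.037 to 0.34 in WT and from 0.21 to 0.64 in SP.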

How the data were processed

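Single-cell libraries were made from dissociated whole kidneys with a droplet 3′ chemistry that counts UMIs. The authors deposited 1 matrix per library of raw counts (UMIs per gene and barcode). The file headers name Cell Ranger 6.1.2 and the labels Cell Ranger 2.1.1 with build mm10, and which version made the matrices is not resolved here. From these counts, late cells were selected as described, and their UMIs were summed per library and divided by the summed UMIs that were not mitochondrial (CPM). Genes with a mean of at least 20 CPM were compared as log2 ratios, with exact conditional binomial intervals for ratios, exact Poisson intervals for CPM and Clopper-Pearson intervals for shares, all at 95%. With 1 library per condition no test was run. In comparisons between libraries, a library at 0 was set to 3 UMIs for a bound. Over all genes, the counts of Cyp7b1 against other late cells and of late against early cells left out genes at 0. No doublet caller was run. The members and lists were chosen with earlier results of these data known. Genes were named if they belonged to a list, a marker set or the selection, were among the 10 largest ratios each way in a comparison, among the 15 each way shared by both genotypes, by both diets or by late over early cells, or among the 15 most variable. Genes beyond that rule, such as those of the Cyp7b1 cells, were chosen after their values were seen. The values of a few genes are not reported here, though counts and medians of lists include them. Scripts were checked on simulated counts. The scripts ran on Python 3.11.15 with scipy 1.17.1 for intervals, pandas 2.3.3 with numpy 2.4.6 for sums, and figures from matplotlib 3.10.9. Promoter windows came from RefSeq, GRCm38.p6. Alternatives varied the limits, the late genes, the scaling, the weight of cells and the filter on low genes.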

Additional observations from a re-analysis of the deposited data

Results flagged for a closer look

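A gene stands here when both diet ratios, or both genotype ratios, passed 2-fold in opposite directions, which held for 1 of 5721 genes on diet and 4 of 5721 on genotype, of which 3 are given. The difference between the 2 ratios was not tested in any of them, since each condition is 1 library. Ren1, the renin gene, was the gene found on diet, with a log2 ratio of HFD over ND of 5.52 in WT and -1.68 in SP. Between genotypes its SP over WT ratio was 1.40 on ND and -5.80 on HFD. Of its 1693 UMIs in WT-HFD, found in 24 cells, 97.0% came from 1 cell, and 1 cell held 58.6% of its UMIs in SP-ND. The metallothionein gene Mt2 had SP over WT ratios of -1.82 on ND and 1.35 on HFD, and its 232 UMIs in SP-HFD lay in 44 cells, of which the highest held 15.1%. Slc14a2, a urea transporter gene, had ratios of -1.61 on ND and 2.13 on HFD, and 1 cell held 90.2% of its 143 UMIs in SP-HFD and 76.6% of its UMIs in WT-ND.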

How the results depend on the processing

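WT-ND kept the highest late share of kept barcodes under each alternative, and in both genotypes HFD kept the higher late share of late plus early cells. In WT that margin was narrow with Slc7a13 alone, at 48.1% and 51.8%, and no interval was taken for it. No paired analysis was possible because each condition is 1 library. The alternatives with Slc7a13 alone, without Cyp7b1 cells, without barcodes of 10 or more UMIs of other classes per 10000, and without the highest cell of each gene were chosen after seeing the data. Below, diet is HFD against ND and genotype is SP against WT, and the cause of each move was not tested. Under 30% mitochondrial UMIs, late shares of kept barcodes were 6.88% for WT-ND, 3.58% for WT-HFD, 1.90% for SP-ND and 2.88% for SP-HFD; late shares of late plus early cells were 45.4% for SP-ND and 82.9% for SP-HFD; genes called higher numbered 75 for ND genotype and 67 for HFD genotype; genes called lower numbered 34 for HFD genotype; log2 values changed sign for WT diet Ren1 at -0.089, for SP diet Ren1 at 0.90 and Cryab at -0.71, for ND genotype Ren1 at -0.18, for HFD genotype Ren1 at 0.80. At 2000 or more UMIs, late shares of kept barcodes were 12.2% for WT-ND, 5.21% for WT-HFD and 4.83% for SP-ND. At 10 or more late UMIs and 10 per 10000, late shares of kept barcodes were 4.52% for WT-ND, 1.56% for WT-HFD, 1.61% for SP-ND and 1.70% for SP-HFD; late shares of late plus early cells were 37.1% for WT-ND, 46.9% for WT-HFD, 28.6% for SP-ND and 52.0% for SP-HFD; genes called higher numbered 90 for ND genotype and 106 for HFD genotype; genes called lower numbered 194 for SP diet and 32 for HFD genotype; log2 values changed sign for SP diet Ren1 at 0.88, Cryab at -0.55 and Klk1 at -0.95, for ND genotype Ren1 at -0.71 and Car15 at 0.59, for HFD genotype Igkc at 1.31 and Car3 at -1.32. With up to 6000 genes, log2 values changed sign for ND genotype Cryab at -0.11. Leaving out barcodes with 3 or more UMIs of other classes, which kept 144, 50, 18 and 48 late cells, late shares of kept barcodes were 1.63% for WT-ND, 0.547% for WT-HFD, 0.298% for SP-ND and 0.708% for SP-HFD; late shares of late plus early cells were 43.6% for WT-ND, 67.6% for WT-HFD and 78.7% for SP-HFD; genes called higher numbered 556 for WT diet, 827 for SP diet, 714 for ND genotype and 641 for HFD genotype; genes called lower numbered 438 for WT diet, 960 for SP diet, 480 for ND genotype and 616 for HFD genotype; log2 values changed sign for WT diet Slc7a7 at 0.20, for SP diet Cryab at -0.12, Cd74 at -0.037, Klk1 at -0.71, H2-Eb1 at -1.45, Pvalb at -2.04 and tubular injury and repair genes at -0.29, for ND genotype Jchain at 2.96, Igha at 0.38, Atp6v1g3 at 1.22 and Pvalb at 3.55, for HFD genotype Ren1 at 1.68, Igkc at 1.51, Wfdc15b at 1.21, Atp6v1g3 at 0.35, Tmem213 at 0.85, Defb1 at 0.54, A730049H05Rik at -0.74 and Car15 at 0.68. With Slc7a13 alone as the late gene, late shares of kept barcodes were 7.10% for WT-ND, 1.90% for WT-HFD, 3.08% for SP-ND and 1.81% for SP-HFD; late shares of late plus early cells were 48.1% for WT-ND, 51.8% for WT-HFD, 43.5% for SP-ND and 53.7% for SP-HFD; genes called higher numbered 81 for HFD genotype; genes called lower numbered 197 for SP diet and 27 for HFD genotype; log2 values changed sign for WT diet Ren1 at -0.40, for SP diet Klk1 at -0.51. Leaving out cells with 3 or more Cyp7b1 UMIs, late shares of kept barcodes were 3.32% for SP-HFD; log2 values changed sign for ND genotype Cryab at -0.85. Leaving out barcodes with 10 or more UMIs of other classes per 10000, late shares of kept barcodes were 8.98% for WT-ND, 3.07% for WT-HFD and 3.00% for SP-HFD; late shares of late plus early cells were 66.4% for WT-HFD; genes called lower numbered 30 for ND genotype and 3 for HFD genotype; log2 values changed sign for WT diet Ren1 at -0.88, Tmem213 at -0.24 and Spp1 at -0.47, for SP diet Klk1 at -0.011 and H2-Eb1 at -0.70, for ND genotype Ren1 at -0.10, Tmem213 at 0.057 and Car15 at 0.54, for HFD genotype Igkc at 1.13, Wfdc15b at 0.28, Atp6v1g3 at 0.17, Tmem213 at 0.93, Defb1 at 0.48, Pvalb at 0.83 and Car15 at 0.18. With CPM over all UMIs, genes called higher numbered 25 for ND genotype; genes called lower numbered 68 for SP diet and 8 for HFD genotype. With the median log2 ratio set to 0, genes called lower numbered 27 for HFD genotype. With a mean over cells, genes called higher numbered 74 for ND genotype and 71 for HFD genotype; genes called lower numbered 49 for HFD genotype. With 10% of UMIs subtracted as free RNA, genes called higher numbered 43 for HFD genotype; log2 values changed sign for HFD genotype Klk1 at -0.049. At a mean of 50 CPM or more, genes called higher numbered 43 for WT diet, 81 for SP diet, 19 for ND genotype and 8 for HFD genotype; genes called lower numbered 36 for WT diet, 53 for SP diet, 24 for ND genotype and 6 for HFD genotype. Without a filter beyond 3 UMIs, genes called higher numbered 1602 for WT diet, 1461 for SP diet, 946 for ND genotype and 749 for HFD genotype; genes called lower numbered 543 for WT diet, 668 for SP diet, 727 for ND genotype and 710 for HFD genotype. Of the other values over all alternatives, 2703 log2 ratios of named genes stayed within their counting interval and 873 moved beyond it, and 1235 list medians stayed and 116 moved. Depth limits low genes: 3 UMIs equal 0.369 CPM in WT-ND and 1.25 CPM in SP-HFD.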
